A study of Homo sapiens with 6 samples.

Results

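Diacylglycerol kinases phosphorylate diacylglycerol, a membrane lipid that activates protein kinase C and other signalling proteins, to phosphatidic acid, itself a signalling lipid and a precursor of phosphoinositides. The family is divided into types by the domains that surround a shared catalytic region and pairs of cysteine-rich C1 domains. DGKA and DGKG (type I) carry calcium-binding EF hands, DGKD and DGKH (type II) a pleckstrin homology domain, DGKE (type III) none of these additions, DGKI and DGKZ (type IV) a MARCKS-like segment and ankyrin repeats, and DGKQ (type V) a further C1 domain. DGKA and DGKZ are best known as brakes on T cell receptor signalling.

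The 8 diacylglycerol kinase genes described here were taken by symbol from 21447 genes measured by bulk RNA-seq in U-2 OS, an established human osteosarcoma cell line grown in DMEM with fetal bovine serum. Untreated libraries (n = 3) were compared with libraries (n = 3) from cells given 4 Gy of ionizing radiation (IR) and collected after 24 h. Both groups came from the same line, with no allele or agent beyond IR in the labels. The labels do not say whether the replicates of a group were separate cultures, and the paper calls them independent samples. Every value below is the deposited kallisto estimate of read counts, summed per gene and scaled to library size (CPM) with edgeR's TMM factors, unless the deposited TPM, a unit that also corrects for transcript length, is named.

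All 8 genes passed the filter on low counts that left 14323 genes tested. DGKA was chosen by its difference between IR and untreated libraries and its relatives by family name with the same contrast already known, so their differences are described with no test. DGKB and DGKK were the other family genes in the files. DGKB had 5 to 9 estimated counts per library and did not pass the filter, and DGKK, with 40 to 93 counts, had a value of −0.14 for log2 IR over untreated (standard error, SE, 0.23).

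Estimated counts per library summed to between 18573309 and 22953834, except in IR replicate 3, which held 45308792. That library also stood apart in its gene counts, with a chi-square per gene, a measure that grows with depth, of 29.1 and 32.3 against the other IR libraries, beside 5.96 between those and 3.46 to 9.22 among the untreated ones. Whether it was sequenced more than once is not given in the sources used here. CDKN1A, which encodes the p53-induced cell cycle inhibitor p21, was at 122.08 ± 1.70 CPM in untreated and 351.16 ± 34.9 CPM in IR libraries (SD, n = 3 each; log2 fold change 1.53, adjusted p = 2.8e-05 by edgeR's quasi-likelihood test), and MDM2, the ligase that degrades p53, at 140.56 ± 5.38 and 213.3 ± 3.75 CPM (0.60, adjusted p = 0.00029). Of 8 mesenchymal markers, 6 were at 1 CPM or more in every library. Of 10 T lymphocyte markers, 7 stayed under 1 CPM in every library, CD3E and CD2 had no counts, and the list summed to 5.88 to 7.49 CPM in untreated and 6.53 to 8.95 CPM in IR libraries. Of 8 epithelial markers, 5 were at 1 CPM or more in every library. The epithelial list summed to 315 to 317 CPM in untreated and 378 to 460 CPM in IR libraries, and its part in the values below was not tested. The mesenchymal list summed to 6997 to 7626 CPM in untreated and 7386 to 8054 CPM in IR libraries.

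DGKA (ENSG00000065357) lies on the plus strand of chromosome 12, from 55927319 to 55954027 in GRCh38, and has 49 transcripts in the files. The sequences below lie upstream of the starts of DGKA-201 and DGKA-229 and at the coding start. The 3 transcripts with the full coding sequence of 2205 bases, DGKA-201, DGKA-202 and DGKA-229, each have 24 exons, begin at different positions and share the whole coding sequence. DGKA-202 begins at 55932028 and DGKA-229 at 55932058, and their first exons overlap, whereas DGKA-201 begins at 55931162. The start of DGKA-229 lies 896 bases downstream of that of DGKA-201. Given are the 200 bases before the block of first exons that holds each start, at chr12:55930889-55931088 for DGKA-201 and chr12:55931589-55931788 for DGKA-229, with CpG dinucleotides in capitals, and the coding bases of exon 2 at chr12:55936504-55936567, with the start codon in capitals, all from the plus strand of GRCh38. Neither upstream window holds an annotated exon. Between window and transcript start lie 73 bases for DGKA-201 and 269 bases for DGKA-229, so neither window reaches the start itself.
DGKA-201 upstream: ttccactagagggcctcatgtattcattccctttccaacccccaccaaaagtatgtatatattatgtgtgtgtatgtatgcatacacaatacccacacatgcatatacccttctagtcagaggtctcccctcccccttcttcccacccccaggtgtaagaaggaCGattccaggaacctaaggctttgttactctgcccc
DGKA-229 upstream: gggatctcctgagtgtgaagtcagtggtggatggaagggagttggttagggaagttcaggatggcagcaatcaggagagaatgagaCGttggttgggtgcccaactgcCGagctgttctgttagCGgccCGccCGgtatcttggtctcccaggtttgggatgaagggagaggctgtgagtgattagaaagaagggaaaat
DGKA coding start: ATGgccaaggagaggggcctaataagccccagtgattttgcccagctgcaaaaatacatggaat
The window before DGKA-201 is 47.5% G or C with 1 CpG, and that before DGKA-229 is 53.5% G or C with 5. Neither holds the p53 half-site consensus, a palindrome, so that one search covers both strands. RefSeq promoter windows of 300 bases (GRCh38.p14) matched 7 of the 8 genes, with 19 windows in all, of which 5 belong to DGKA. The half-site was found in 0 of the 5 DGKA windows and in 1 window of the family, one of DGKZ, against 6.63% of all 35116 windows, and its absence says only that these letters are not in these windows.

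DGKA was higher after IR in every library. Its level was 21.7, 22.4 and 22.3 CPM in untreated replicates 1 to 3 and 48.9, 51.1 and 48.6 CPM in IR replicates 1 to 3. The groups were far apart and each was tight, with a mean of 22.1 ± 0.377 CPM in untreated and 49.6 ± 1.37 CPM in IR libraries (SD, n = 3 each), a ratio of 2.24. The log2 fold change was 1.16 (SE 0.07) and stayed between 1.14 and 1.17 when any 1 library was left out. By this value DGKA stood at place 99 among the 2227 genes higher after IR. In these bulk libraries, more cells that express DGKA and more DGKA RNA per cell cannot be told apart.

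The other type I gene, DGKG (ENSG00000058866, chromosome 3, 186105668 to 186362234, minus strand), did not follow it. DGKG was at 15.4, 16.5 and 20.5 CPM in untreated and 18.6, 17.3 and 17.9 CPM in IR libraries, so the IR values lay inside the untreated range. Its log2 fold change was 0.04 (SE 0.11).

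The type II genes differed in sign. DGKD (ENSG00000077044, chromosome 2, 233354494 to 233472104, plus strand) was at 64.7, 69.3 and 62.3 CPM in untreated and 71.7, 75.2 and 82.1 CPM in IR libraries, without overlap, a log2 fold change of 0.22 (SE 0.08). DGKH (ENSG00000102780, chromosome 13, 42040036 to 42256578, plus strand) was at 17.5, 16.5 and 13.7 CPM in untreated and 13.8, 11.9 and 10.3 CPM in IR libraries, a log2 fold change of −0.42 (SE 0.14). The DGKH groups met at their edges, since IR replicate 1 lay just above untreated replicate 3.

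DGKE (ENSG00000153933, chromosome 17, 56834107 to 56869567, plus strand), the type III enzyme that favours diacylglycerol with an arachidonoyl chain, was at 14.4, 17.1 and 15.1 CPM in untreated and 14.6, 13.7 and 12.1 CPM in IR libraries. These ranges overlapped, and the log2 fold change was −0.21 (SE 0.11).

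Of the type IV genes, DGKI (ENSG00000157680, chromosome 7, 137381037 to 137847092, minus strand) was at 21.2, 19.6 and 18.4 CPM in untreated and 26.4, 22.2 and 22.5 CPM in IR libraries, without overlap, a log2 fold change of 0.26 (SE 0.10). DGKZ (ENSG00000149091, chromosome 11, 46332905 to 46380554, plus strand) was at 91.2, 92.4 and 88.5 CPM in untreated and 93.0, 94.3 and 116 CPM in IR libraries. Only IR replicate 3 stood clear of the untreated libraries by more than a few CPM. The log2 fold change of DGKZ was 0.16 (SE 0.09), and 0.04 without that library.

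DGKQ (ENSG00000145214, chromosome 4, 958887 to 986895, minus strand), the type V gene and the one with fewest counts, was at 5.44, 6.15 and 7.13 CPM in untreated and 8.71, 8.17 and 12.98 CPM in IR libraries. The groups did not overlap, IR replicate 3 was again the highest, and the log2 fold change of 0.69 (SE 0.19) became 0.42 without it.

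**Figure D1:**
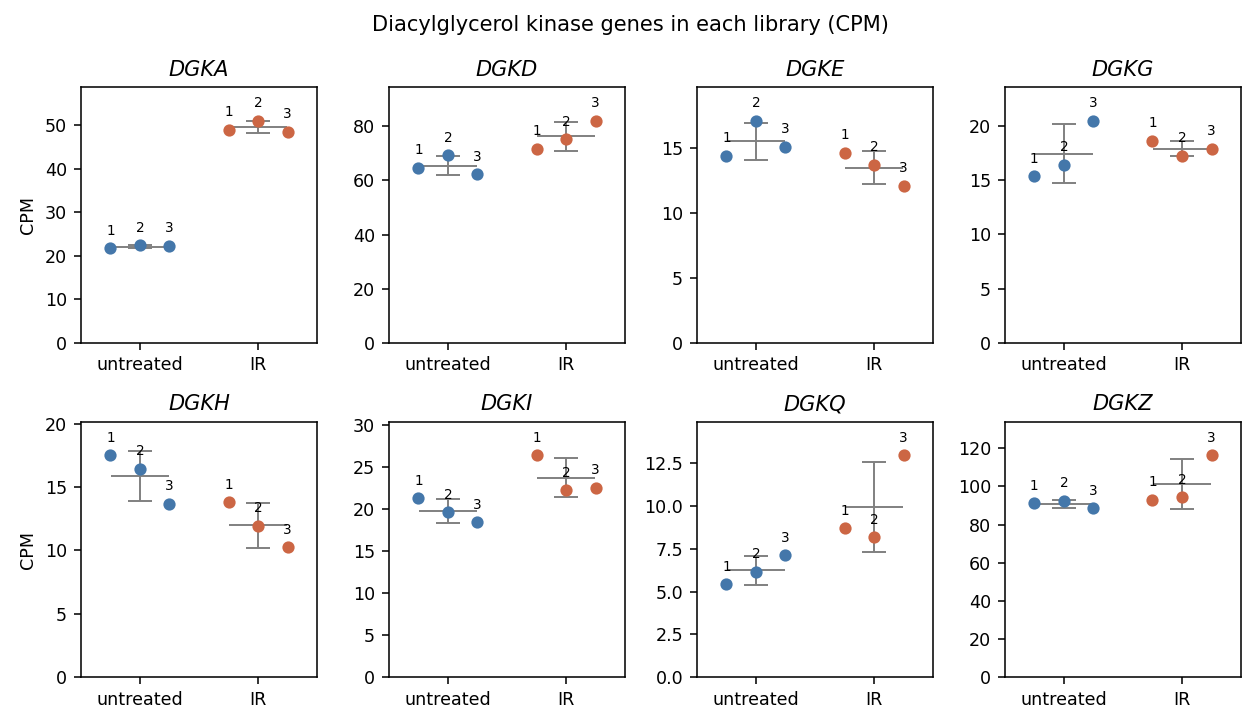
CPM (linear axis from 0, a separate scale for each gene) of the 8 diacylglycerol kinase genes in the 3 untreated and 3 IR libraries; points are libraries numbered by replicate, and the bar and whiskers are the mean ± SD. The DGKA groups are widely separated, at 22.1 and 49.6 CPM on average, whereas DGKE, DGKG and DGKH overlap and the highest DGKQ and DGKZ points are both IR replicate 3.

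Side by side, 6 of the 8 genes had a log2 fold change above 0. The median was 0.19 over all 8 and 0.16 without DGKA, beside 0.01 over all genes tested. Over all 8 it was smaller on other scales, 0.07 with the GC trend removed and 0.10 with transcript length as an offset. All genes tested had 0.0008 and 0.01 there. An adjusted p under 0.05 was reached by 4 of the 8, against 30.1% of all genes tested, by 3 that were higher (DGKA, DGKD and DGKQ), against 15.5%, and by 1 that was lower (DGKH), against 14.5%. With the GC trend removed 3 of the 8 were called, against 24.2% of all genes, and with transcript length as an offset 2 of the 8, against 11.9%. These are not simply fewer of the 4 above. With the GC trend removed, the largest values relative to SE were those of DGKA, DGKI (0.34, SE 0.09) and DGKZ (−0.19, SE 0.05). With the length offset they were those of DGKI (0.79, SE 0.12) and DGKA (1.11, SE 0.19). The CPM of the groups did not overlap for 5 of the 8, against 47.1% of all genes. Since the genes were selected on this contrast, nothing is read from these counts.

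The family differs in base composition, and the sizes of several differences moved with it. Mean G and C content ran from 38.4% of transcript bases in DGKE to 65.5% in DGKQ, with DGKZ at 63.2% and DGKA at 50.2%. With each library's trend over GC content removed, the log2 fold change of DGKA was 1.16 (SE 0.06), that of DGKQ was 0.25 (SE 0.15), that of DGKE was −0.02 (SE 0.10), and that of DGKZ changed sign to −0.19 (SE 0.05). DGKD was at 0.12, DGKG at 0.02, DGKH at −0.32 and DGKI at 0.34 on that scale, so that 5 of the 8 were above 0.

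Transcript length made the other large shift. The effective length of a gene, the mean length available to reads over its transcripts weighted by their TPM, was 2177, 2039 and 1885 bases for DGKI in untreated libraries and 1431, 1426 and 1417 bases after IR. For DGKH it was 7149, 5179 and 5430 bases in untreated and 4550, 4005 and 4383 bases in IR libraries. With counts taken relative to this length, the log2 fold change of DGKI was 0.79 (SE 0.12) and that of DGKH was 0.04 (SE 0.17), opposite in sign to its count-based value. DGKA was at 1.11 (SE 0.19), DGKQ at 0.74 (SE 0.38), DGKZ at −0.03 (SE 0.13), DGKD at 0.12, DGKE at −0.24 and DGKG at 0.08, so that 6 of the 8 were above 0.

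**Figure D2:**
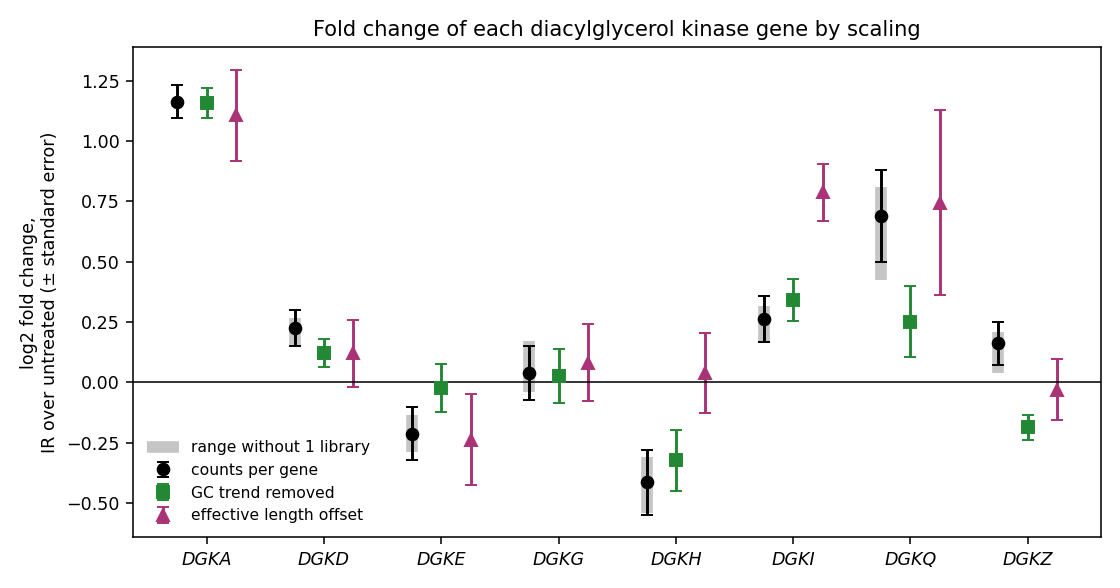
Log2 fold change of IR over untreated for each gene on 3 scales, from counts per gene (black), with the GC trend removed (green) and with the effective length as an offset (purple); whiskers are ± the standard error and grey bars the range when 1 library is left out. DGKA lies between 1.11 and 1.16 on all 3 scales, whereas DGKH and DGKZ each lie on both sides of 0.

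Levels of the kinase genes were set in order by deposited TPM, which are per transcript length. In untreated cells the order of mean levels was DGKZ (38.7 ± 3.06 TPM), DGKA (24.8 ± 5.34), DGKD (17.3 ± 2.47), DGKI (12.4 ± 0.0691), DGKG (9.84 ± 2.03), DGKE (8.39 ± 1.43), DGKH (3.47 ± 0.530) and DGKQ (1.79 ± 0.582; SD, n = 3 each). The library ranges of DGKA and DGKD overlapped, as did those of DGKG and DGKE, and all other neighbours in this order were apart. After IR, DGKA came first at 51.1 ± 6.41 TPM, followed by DGKZ (36.8 ± 7.57), DGKI (20.7 ± 2.47), DGKD (18.1 ± 2.37), DGKG (10.1 ± 1.43), DGKE (6.89 ± 1.21), DGKH (3.45 ± 0.333) and DGKQ (2.90 ± 1.78). Here DGKA and DGKZ, DGKI and DGKD, and DGKH and DGKQ were neighbours with overlapping ranges. CPM per kilobase of effective length gave both orders again. That length is itself weighted by TPM, so this agreement was built in and is no check.

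DGKA TPM was less even than its CPM, at 28.8, 26.8 and 18.7 in untreated and 50.7, 57.7 and 44.9 in IR libraries, and still did not overlap between groups. DGKI was the only other gene of the family whose TPM did not overlap, at 12.4, 12.3 and 12.4 in untreated and 22.9, 18.0 and 21.2 in IR libraries. DGKA accounted for 23.8, 23.0 and 16.6% of the summed TPM of the 8 genes in untreated libraries and for 34.7, 39.4 and 28.6% after IR. By CPM, with no correction for length, its share was 8.62, 8.61 and 8.99% in untreated and 16.5, 17.4 and 15.1% in IR libraries. Its effective length was 957 to 1514 bases, against 2671 to 2770 bases for its transcripts with the full coding sequence. The place of DGKA by TPM thus rests partly on its short transcripts. The other 7 genes together summed to 92.1, 89.7 and 93.7 TPM in untreated libraries and to 95.6, 89.0 and 112.4 TPM after IR, where IR replicate 3 was again the highest.

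Within DGKA, the transcripts with the full coding sequence made up 57.5, 52.5 and 70.1% of the gene's counts in untreated libraries and 52.9, 50.1 and 53.5% after IR, ranges that overlapped. Their summed level was 12.5, 11.8 and 15.6 CPM in untreated and 25.9, 25.6 and 26.0 CPM in IR libraries, a ratio of means of 1.95. This sum was steady across the IR libraries although its parts were not. DGKA-229 was at 8.58, 5.82 and 0 CPM in untreated libraries and at 16.7, 0 and 11.8 CPM after IR. DGKA-201 ran the other way, at 3.88, 5.13 and 13.9 CPM in untreated and 8.32, 21.1 and 11.6 CPM in IR libraries. DGKA-202 stayed at 4.54 CPM or less in every library. Since these transcripts differ only outside the shared coding exons, the split between them is an estimate by kallisto from few reads, and no choice of first exon is read from it.

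The other classes of DGKA transcript were also higher after IR. Transcripts annotated with a retained intron summed to 4.99, 6.75 and 3.20 CPM in untreated and 12.4, 14.7 and 8.56 CPM in IR libraries, without overlap. Their share of the gene was 23.0, 30.1 and 14.4% in untreated and 25.4, 28.7 and 17.6% in IR libraries, and overlapped. Those annotated for nonsense-mediated decay were at 0.657, 0.860 and 0.710 CPM in untreated and 5.03, 0.669 and 3.26 CPM in IR libraries, and transcripts with no defined coding sequence at 0.603, 0.629 and 0.445 CPM and then 0.292, 6.59 and 6.39 CPM. In each of these 2 classes 1 IR library lay within or below the untreated values.

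Of the 49 DGKA transcripts, 13 averaged at least 0.5 CPM, the other 36 together gave 1.74 to 2.74 CPM in untreated and 3.15 to 5.37 CPM in IR libraries, and 10 had no counts in any library. Beyond the transcripts above, the largest were DGKA-239, a coding fragment of 607 bases at 1.82, 1.37 and 0.74 CPM in untreated and 4.23, 2.48 and 3.41 CPM in IR libraries, and DGKA-218, with no defined coding sequence, at 0, 0 and 0.40 CPM and then 0, 5.95 and 5.91 CPM. The intron-retaining DGKA-234 averaged 1.27 CPM in untreated and 2.65 CPM in IR libraries, DGKA-236 averaged 1.00 and 2.21 CPM, DGKA-216 averaged 1.00 and 2.07 CPM, DGKA-214 averaged 0.45 and 0.98 CPM, and DGKA-206 averaged 0.13 and 1.02 CPM. The decay transcripts DGKA-240 and DGKA-203 averaged 0.47 and 0.00 CPM in untreated and 1.29 and 1.42 CPM in IR libraries. DGKA-205, which begins at the most upstream start, was at 0.74 CPM in untreated and 0.66 CPM in IR libraries and was the one transcript of the 13 that was not higher on average after IR. Of the 13, DGKA-236 and DGKA-239 did not overlap between groups, whereas 22.0% of all transcripts with such a mean did not.

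In DGKG and DGKH, 1 transcript held most counts in every library. DGKG-201 held 74.2 to 79.3% of DGKG counts in every library, and DGKH-201, a transcript of 17261 bases, held 69.9 to 89.9% of DGKH counts. DGKH-201 was at 15.2, 12.3 and 12.3 CPM in untreated and 10.6, 9.15 and 7.16 CPM in IR libraries, without overlap. DGKE-201 held 44.7 to 68.4% of its gene and was at 6.47 to 8.35 CPM in untreated and 7.28 to 9.4 CPM in IR libraries. DGKD-201 held 21.5 to 63.2% of DGKD, with its lowest value, 17.7 CPM, in IR replicate 3, where DGKD-202 was at 33.9 CPM. DGKI-204 held 30.3 to 56.6% of DGKI, DGKZ-203 held 21.1 to 31.2% of DGKZ and was the highest DGKZ transcript in 3 of the 6 libraries, and DGKQ-203 ran from 0 to 76.0% of DGKQ.

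Over the family, 48 transcripts averaged at least 0.5 CPM, and 7 of them did not overlap between groups, against 22.0% of all 58401 transcripts at that level, a share from which nothing is read for genes selected on this contrast. Of these, 2 that were chosen after their values were seen bear on the length scale. DGKI-207, a transcript of 2 exons and 650 bases, was at 1.43, 1.87 and 1.47 CPM in untreated and 2.66, 3.32 and 4.25 CPM in IR libraries, while DGKI-204, of 12928 bases, was at 7.48, 9.29 and 8.36 CPM and then 7.99, 12.6 and 7.76 CPM. DGKZ-220 was at 18.9, 24.9 and 25.4 CPM in untreated and 14.9, 3.29 and 0.45 CPM in IR libraries, although the DGKZ total did not fall in any of them below the untreated range. DGKZ-208 was at 1.83, 0 and 5.57 CPM in untreated and 24.2, 28.7 and 0.32 CPM in IR libraries, and DGKZ-205 reached 49.4 CPM in IR replicate 3. The split between DGKZ transcripts is an estimate by kallisto, and no loss of DGKZ-220 is read from it.

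Several exons are shared with other genes, and whether the libraries kept strand is not given in the sources used here. PYM1, a cofactor of the exon junction complex on the opposite strand, shares 353 exon bases with DGKA, which is 3.50% of the DGKA exon bases. PYM1 was at 19.2, 17.1 and 16.5 CPM in untreated and 16.1, 19.2 and 17.9 CPM in IR libraries, with a log2 fold change of 0.01 (SE 0.10). TRIM25 shares 80 exon bases with DGKE on the opposite strand, and ETV5 shares 164 with DGKG on the same strand. Reads that lie wholly within those bases cannot be told apart without strand or, for ETV5, even with it.

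Genes beside DGKA were compared to see whether the interval as a whole differed between the groups. Of the 10 protein-coding genes within 100 kb, all of which passed the filter, 1 rose, 1 fell and 8 did not pass the test, so that 2 of 10 were called beside 30.1% of all genes (15.5% higher and 14.5% lower). MMP19, a matrix metalloproteinase gene 84.4 kb upstream, rose from 29.8 ± 2.33 to 39.2 ± 0.754 CPM (SD, n = 3 each; log2 fold change 0.40, SE 0.08, edgeR adjusted p = 0.0050), and was at 0.50 with the effective length offset, where it did not pass. IKZF4, an Ikaros family transcription factor gene 53.6 kb downstream, fell from 18.9 ± 2.09 to 14.8 ± 1.31 CPM (log2 fold change −0.36, SE 0.11, edgeR adjusted p = 0.034). The IKZF4 call was lost with the length offset (−0.23), and also without untreated replicate 1 (−0.32), untreated replicate 2 (−0.30) or IR replicate 3 (−0.29).

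The nearest genes did not pass. PMEL, a melanosome protein gene on the opposite strand whose 3′ end lies 0.078 kb past the end of DGKA, was at 0.446 to 0.659 CPM in untreated and 0.544 to 0.974 CPM in IR libraries, and CDK2, the S-phase kinase gene 12.8 kb away, was at 100.81 to 103.94 CPM and 98.6 to 103.07 CPM, a log2 fold change of −0.02 (SE 0.06). The small GTPase gene RAB5B (0.06), the sulfite oxidase gene SUOX (0.21), the ribosomal protein gene RPS26 (0.06), DNAJC14 (−0.14) and ENSG00000257390 (−1.24, SE 0.91) complete the list with their log2 fold changes. Without IR replicate 3, SUOX passed at a log2 fold change of 0.27.

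Genes that supply, bind or consume the same lipids form the wider pathway. Of 75 such genes listed, 66 passed the filter, 13 rose, 6 fell and 47 did not pass the test, a called share of 28.8% beside the 30.1% of all genes, with a median log2 fold change of 0.07 beside 0.01. The list as a whole was thus near the background. Its median was 0.03 with the GC trend removed and 0.05 with the length offset, beside 0.0008 and 0.01 over all genes. The counts depended on the scale, with 7 up and 6 down once the GC trend was removed, and 5 up and 5 down with the length offset, which is 19.7% and 15.2% of the list beside 24.2% and 11.9% of all genes on the same scales. On each of these scales 10 of the 19 lost the call, and genes not among the 19 gained it. Those gained were CHPT1 (higher), PITPNM3, PI4KA and PIP5K1C (lower) with the GC trend removed and PITPNB (lower) with the length offset. Of the 19 called, 8 passed in the same direction under all 13 alternatives: PLCB2, PLCD3, PLCE1, PLPP2, LPIN3, PRKCA, AGPAT2 and GPAM.

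Phospholipase C enzymes release diacylglycerol from phosphoinositides, and 9 of 13 were tested. PLCE1, activated by RAS family GTPases, fell from 120, 130 and 121 CPM to 87.7, 81.0 and 72.1 CPM (log2 fold change −0.63, SE 0.08, edgeR adjusted p = 0.00082). PLCD3 rose by 0.50 (SE 0.09, edgeR adjusted p = 0.0027) and PLCB2 by 0.37 (SE 0.07, edgeR adjusted p = 0.0041) on the log2 scale. The other 6 did not pass.

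Lipid phosphatases and sphingomyelin synthases make diacylglycerol by other reactions, and all 8 were tested. LPIN3, a lipin that dephosphorylates phosphatidic acid, the reverse of the kinase reaction, rose from 20.3, 16.8 and 16.5 CPM to 27.6, 31.1 and 27.5 CPM (log2 fold change 0.69, SE 0.10, edgeR adjusted p = 0.0014). PLPP2, a lipid phosphate phosphatase, rose by 0.52 (edgeR adjusted p = 0.0033). SGMS2, a sphingomyelin synthase, fell by 0.30 on the log2 scale, and its call was lost without untreated replicate 2 (−0.29) or IR replicate 2 (−0.28), on the GC scale (−0.18) and on the length scale (−0.38).

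Receptors bind diacylglycerol through C1 domains, and 15 of 19 were tested. PRKCA, the classical protein kinase C alpha, fell from 351, 350 and 313 CPM to 243, 223 and 209 CPM (log2 fold change −0.59, SE 0.08, edgeR adjusted p = 0.00090). The protein kinase D genes passed in opposite directions, PRKD3 at −0.33, lost with the GC trend removed (−0.15), and PRKD2 at 0.41, lost on the GC scale (0.17), on the length scale (0.47) and without untreated replicate 3 (0.36). UNC13A, a priming factor of vesicle release, passed at 0.34 and lost the call without untreated replicate 1, 2 or 3 or IR replicate 1 or 2 (0.27 to 0.40), under DESeq2 (0.34 with its size factors and with its Wald test), with a replicate block (0.35) and on the GC (0.24) and length (0.07) scales. RASGRP1, a RAS activator, had the largest value of the list, 0.80, with an SE of 0.88 and an edgeR adjusted p of 0.52.

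Among the 7 genes of other diacylglycerol use, the triacylglycerol synthase DGAT1 passed at 0.33 and the diacylglycerol lipase DAGLB at 0.28. DGAT1 lost the call without untreated replicate 1, 2 or 3 or IR replicate 2 or 3 (0.25 to 0.36) and DAGLB without untreated replicate 2 (0.29) or 3 (0.23), and neither passed on the GC scale (0.03 and 0.14) or, at larger values than by counts, on the length scale (0.37 and 0.36). DGAT1 also missed the threshold with a replicate block (0.33). CHPT1, which did not pass by counts (0.27), passed on the GC scale (0.31).

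Other routes to phosphatidic acid gave 3 that rose and 2 that fell of 11 tested. AGPAT2, an acyltransferase of the glycerol phosphate pathway, rose from 36.6, 32.2 and 34.6 CPM to 50.3, 48.7 and 66.3 CPM (log2 fold change 0.68, SE 0.12, edgeR adjusted p = 0.0026), with the highest value in IR replicate 3. GPAM, a mitochondrial acyltransferase of the first step, fell from 23.5 ± 2.32 to 16.8 ± 0.529 CPM (SD, n = 3 each; −0.48, SE 0.09, edgeR adjusted p = 0.0044). The other 3 calls, GPAT2 at 0.39, the phospholipase PLD2 at 0.32 and GPAT3 at −0.34, were lost on the GC scale, at 0.11, 0.17 and −0.21, and on the length scale, at 0.57, 0.29 and −0.56. GPAT2 also lost its call without untreated replicate 1, 2 or 3 (0.37 to 0.40), PLD2 without untreated replicate 1 (0.31) or 3 (0.29), and GPAT3 without untreated replicate 3 (−0.27) or IR replicate 2 (−0.31).

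Enzymes and transfer proteins that return phosphatidic acid to phosphoinositides had 2 of 16 called, both higher. The direction depended on the scale. On the GC scale 4 of the 16 were called, 1 higher and 3 lower, and on the length scale 1, which was lower. Those lower were PITPNM3 (−0.45), PI4KA (−0.20) and PIP5K1C (−0.23) on the GC scale and PITPNB (−0.43) on the length scale. PITPNM1, a lipid transfer protein, rose from 32.0, 33.5 and 32.9 CPM to 47.4, 48.4 and 58.4 CPM (log2 fold change 0.65, SE 0.09, edgeR adjusted p = 0.0012), and did not pass with the length offset (0.14). CDIPT, the phosphatidylinositol synthase, passed at 0.36 and lost the call without untreated replicate 1, 2 or 3 or IR replicate 3 (0.19 to 0.40), on the GC (0.14) and length (0.47) scales, with the size factors of DESeq2 (0.36) and with a replicate block (0.35).

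**Figure D3:**
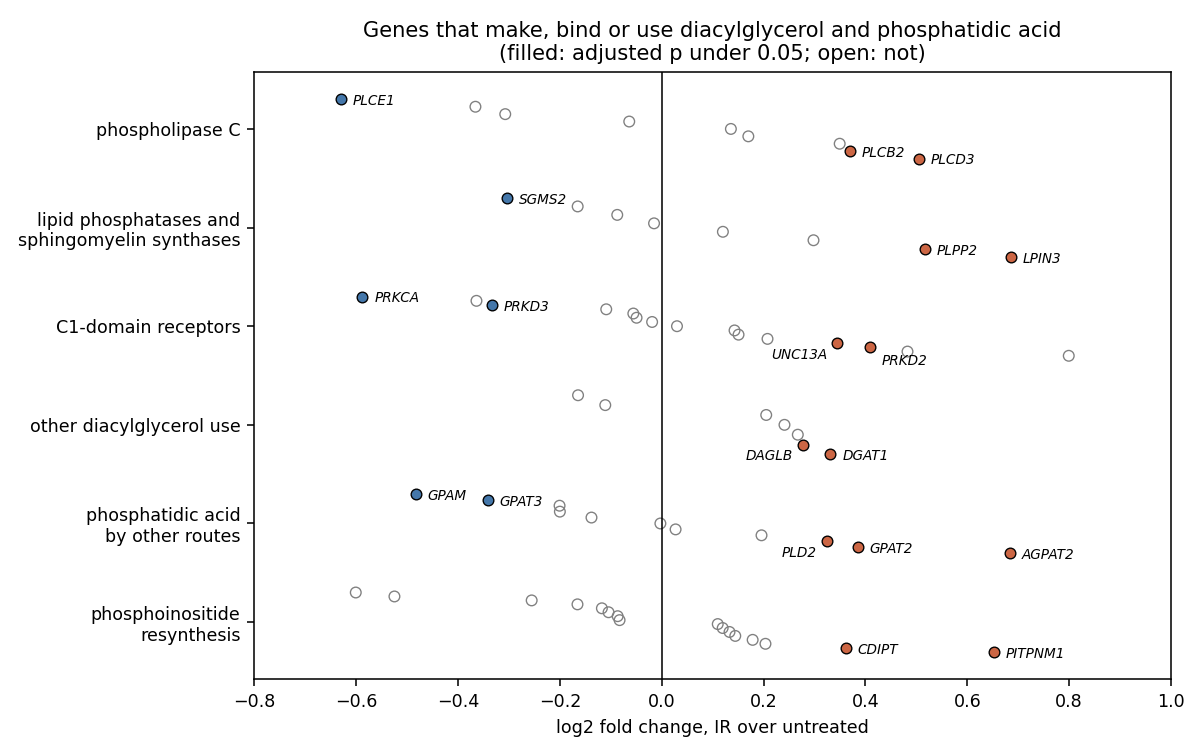
Log2 fold change of IR over untreated for the 66 tested genes of diacylglycerol and phosphatidic acid metabolism, by role; filled points passed an adjusted p of 0.05 (orange higher, blue lower after IR) and open points did not. Called genes lie on both sides of 0, from PLCE1 at −0.63 to LPIN3 at 0.69.

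The genes whose profile over the 6 libraries lay closest to that of DGKA were sought among 11667 genes with at least 100 counts on average, by the root mean square distance of log2 CPM centred on each gene's mean. The 6 libraries form 2 groups, so closeness here means mainly a like difference between the groups. Nearest was DRAM1, an autophagy regulator, at a distance of 0.053, with 13.3, 13.7 and 14.5 CPM in untreated and 28.2, 30.4 and 29.8 CPM in IR libraries. Next came the antiproliferative gene BTG2 (distance 0.054), MYO15B (0.072), the epidermal growth factor receptor ligand gene AREG (0.079) and SLAMF7 (0.086), a surface receptor known from immune cells. MYO15B differed from DGKA on the length scale, where its log2 fold change was 0.43.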

How the data were processed

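RNA from 3 untreated and 3 irradiated U-2 OS samples was sequenced, and the authors trimmed reads with fastp and quantified transcripts with kallisto against GENCODE release 37 of GRCh38. The deposited estimated counts (expected counts) and TPM are per transcript, with kallisto's length and effective length. Whether poly(A) or total RNA was sequenced differs between the labels and the methods. Identifiers were looked up in GENCODE release 44 (158711 of 161171 matched; 1.54 to 1.80% of counts unmatched and left out), summed to genes and rounded. The groups were compared by edgeR 4.0.16 in R 4.3.3 (quasi-likelihood test, TMM, filterByExpr, Benjamini-Hochberg adjustment over all 14323 genes, threshold 0.05), which called 4307 genes. Scripts were tested on simulated data. Members and lists were chosen with earlier results of these data known. Named were the 8 genes, DGKA transcripts averaging 0.5 CPM or more, the leading transcript of each other gene, up to 3 called genes of lowest p per role list and direction, tested protein-coding genes within 100 kb of DGKA, and the 5 genes nearest to it in profile. Alternatives were other filters, the size factors and Wald test of DESeq2 1.42.0, a replicate block, removal of each library's trend over GC content (lowess, span 0.3), the effective length as an offset, and leaving out each library. Where replicates are technical, p-values measure only the spread between these samples. Proteins were not analysed here.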

Additional observations from a re-analysis of the deposited data

How the results depend on the processing

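With the effective length offset, all genes called were 1708, pathway genes called 10 and genes called beside DGKA 0, the DGKA log2 fold change was 1.11, and that of DGKH reversed to 0.038. Leaving out 1 library gave 2582 to 4398 genes called over all genes (lowest without untreated replicate 1, 2582, and untreated replicate 2, 2601), 13 to 19 pathway genes and 1 to 2 neighbours, with DGKA between 1.14 and 1.17. The order of levels in TPM has no independent check here, since the alternative scale, CPM per kilobase of effective length, is built from TPM. With the length offset DGKA, DGKD, DGKI and DGKZ also moved beyond the spread of replicates. The other alternatives kept each count within 1.5 times and each DGK value within that spread, except for DGKD, DGKE, DGKQ and DGKZ with the GC trend removed. Same-numbered libraries did not deviate together (r of −0.017, 0.007 and −0.052), beside −0.05 to 0.057 for the other combinations. These values show no pairing by number but, with so few libraries, cannot exclude one. With a replicate block 3351 genes were called, 16 in the pathway and 2 beside DGKA. Depth limits DGKQ most, at 99 to 586 counts, and the transcript splits, which carry no error estimate here.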
